A study of Homo sapiens with 6 samples.

Results

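The annexins are a family of proteins that bind acidic phospholipids at membranes, mostly in a calcium-dependent way, and 10 of their genes were examined here: ANXA1, ANXA2, ANXA3, ANXA4, ANXA5, ANXA6, ANXA7, ANXA9, ANXA10 and ANXA11. They were selected by name as rows of a read count table of 58721 genes, and all 10 were among the 19263 genes with enough reads to be tested. RNA was sequenced from 6 libraries of A375, an established human melanoma line grown in DMEM with serum. In 3 knockout libraries the cells carried a guide RNA (sg) against SOX10, the gene of a transcription factor of neural crest and melanocyte identity, and in 3 control libraries a guide against mCherry, a fluorescent protein that human cells lack, with a genotype labelled WT. The sources used here do not say where in SOX10 the guide cuts or whether a clone or a mixed pool was sequenced. The labels do not say if replicates are separate cultures. The p-values therefore set group differences only against the spread between libraries of a group, and that spread may be technical. The family was proposed with the results of this contrast already known, so the annexins' own differences are given as a description and support nothing further.

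An annexin core folds into repeats that meet the membrane on a convex face where calcium bridges the protein and the lipid headgroups, while the N-terminal tail differs between members and carries their partners. S100 proteins dock on several of these tails, and annexins are known for membrane repair, vesicle traffic, phosphatidylserine binding, plasmin generation at the cell surface and the anti-inflammatory action of ANXA1. ANXA1 and ANXA2 are abundant in many adherent tumour lines, whereas ANXA10 is known chiefly from gastric epithelium.

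The members that moved furthest in each direction were ANXA10, higher in knockout libraries, and ANXA1, lower in them, and their promoters are shown because these 2 windows also stood apart from the rest of the family in base composition. RefSeq sequences (GRCh38.p14) cover 250 bases before to 50 bases after the start of transcription, and all 10 genes matched, with 14 windows in all. The first lies at chr4:168092287-168092586 and the second at chr9:73151615-73151914, both on the plus strand. Capitals mark matches to the SOX letters ACAAAG or ACAATG on either strand.
ANXA10: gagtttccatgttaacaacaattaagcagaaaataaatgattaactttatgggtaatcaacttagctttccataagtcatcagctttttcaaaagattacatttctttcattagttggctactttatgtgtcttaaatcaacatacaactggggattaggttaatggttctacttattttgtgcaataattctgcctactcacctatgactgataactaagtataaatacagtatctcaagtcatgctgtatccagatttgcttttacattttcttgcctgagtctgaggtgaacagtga
ANXA1: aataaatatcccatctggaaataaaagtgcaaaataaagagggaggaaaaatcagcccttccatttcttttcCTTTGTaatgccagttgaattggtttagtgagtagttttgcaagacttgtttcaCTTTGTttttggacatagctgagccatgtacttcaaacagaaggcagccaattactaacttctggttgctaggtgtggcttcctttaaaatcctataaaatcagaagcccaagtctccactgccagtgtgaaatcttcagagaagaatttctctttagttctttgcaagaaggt
The ANXA10 window held no match to the SOX letters. In ANXA1 there were 2 matches, each read on the gene's strand as CTTTGT, the reverse complement of ACAAAG, beginning 178 and 124 bases before the start. Such letters were common, with at least 1 match in 24.5% of all 35116 promoter windows, and among the other annexins only a window of ANXA4 held one, 190 bases before the start. The AP-1 letters TGAGTCA or TGACTCA, also sought on both strands, occurred in 4.95% of all windows and in 1 annexin window, that of ANXA2, beginning 127 bases before the start. No annexin window held both motifs, and a match describes the window and is not a binding site.

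Base composition set these 2 windows apart from the other annexin windows. G and C made up 32.7% of the ANXA10 window and 37.7% of the ANXA1 window, and neither held a CpG. The other 12 annexin windows ranged between 51.7% and 78.0% G and C, around a median of 58.7% over all promoter windows. Of all windows, 2.36% had less G and C than ANXA10 and 7.57% had less than ANXA1.

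Library totals lay between 70075002 and 78148565 counts, so that 3 counts, taken as the floor, stood at no more than 0.0417 CPM (counts scaled to library size, after TMM correction for composition). SOX10 checked the labels: it had 47.2, 47.8 and 41.5 CPM in knockout libraries and 241, 237 and 223 CPM in control libraries, with no overlap (log2 fold change -2.36, standard error 0.08, edgeR adjusted p = 1.84e-07). An exact two-sided permutation test gave p = 0.1, the smallest value that 3 against 3 libraries allow. Transcript remained in the knockout libraries, and its reads cannot show whether protein was lost. Of 7 melanocyte markers 2 rose (MITF and TYRP1), 2 fell (DCT and S100B), 2 did not pass (MLANA and PMEL) and TYR, with 1 count in all, was not tested. Of the tested markers 66.7% were called, beside 28.0% of all tested genes. MITF, the lineage's transcription factor, rose to 138 ± 2.29 CPM in knockout libraries, against 57.5 ± 2.15 CPM in control libraries (SD, n = 3 each). The pigment genes were low in both groups: DCT fell to 0.0657 ± 0.0258 CPM in knockout libraries, against 1.62 ± 0.175 CPM in control libraries, and TYRP1 rose to 0.230 ± 0.0779 CPM in knockout libraries, against 0.0731 ± 0.0197 CPM in control libraries. TYRP1 had at most 7 counts in any control library and had enough reads to be tested through the knockout libraries. DCT had at most 7 counts in any knockout library and had enough reads to be tested through the control libraries. MLANA averaged 0.770 ± 0.412 CPM in knockout and 0.874 ± 0.229 CPM in control libraries, and PMEL averaged 0.370 ± 0.123 CPM in knockout and 0.623 ± 0.0368 CPM in control libraries.

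Relative to control, 3 annexins were called higher in knockout libraries (ANXA2, ANXA4 and ANXA10), 1 was called lower (ANXA1), and 6 were not called, with the threshold set at 0.05 for p-values of the edgeR quasi-likelihood test adjusted over all genes. Over all tested genes 28.0% were called, 14.0% higher and 14.0% lower, and nothing is read from the family's count beside these shares, since the choice of the family used this contrast. The knockout and control libraries did not overlap for 5 of 10 annexins, against 41.6% of all tested genes. The annexins' median log2 fold change was 0.17, beside -0.02 over all tested genes, and only ANXA10 moved past 1 on the log2 scale. In bulk RNA, fewer cells with a transcript and less of it per cell cannot be told apart.

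**Figure D1:**
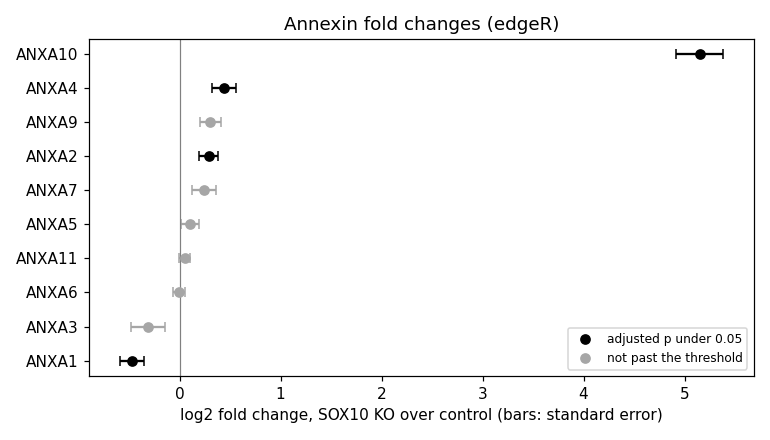
Log2 fold changes of the 10 annexins, SOX10 knockout over control, on the horizontal axis, with 1 gene per row, points for edgeR estimates and bars for standard errors. Black points passed an adjusted p of 0.05 and grey points did not; ANXA10 stands alone at 5.15, ANXA1 lies at -0.47 and the others lie between -0.31 and 0.44.

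ANXA10 (ENSG00000109511; GRCh38 chromosome 4, 168092515 to 168187690, plus strand), an atypical member that lacks most of the calcium sites of the family, showed the widest difference. It had 9.66, 10.9 and 14.3 CPM in knockout libraries, against 0.264, 0.270 and 0.444 CPM in control libraries. Every knockout library lay far above every control library. Control values rested on 19, 20 and 32 reads, above the floor, while the knockout libraries held 695, 850 and 1123 reads. Means of 11.6 ± 2.42 CPM in knockout and 0.326 ± 0.102 CPM in control libraries (SD, n = 3 each) differed 35.6-fold, with a log2 fold change of 5.15 (standard error 0.23, edgeR adjusted p = 9.69e-07). An antisense locus inside the gene, AC116634.1, had 0 counts in all libraries. The log2 fold change stayed between 4.97 and 5.43 in all 13 alternative analyses and was called in each of them.

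ANXA1 (ENSG00000135046; chromosome 9, 73151757 to 73170393, plus strand), known as an inhibitor of cytosolic phospholipase A2 and a ligand of formyl peptide receptors, was the most abundant annexin in both groups. Its level was 969, 1095 and 1242 CPM in knockout libraries, against 1354, 1479 and 1760.3 CPM in control libraries. The groups did not overlap, and the highest knockout library lay under the lowest control library. Means were 1102 ± 137 CPM in knockout and 1531 ± 208 CPM in control libraries (SD, n = 3 each), a log2 fold change of -0.47 (standard error 0.12, edgeR adjusted p = 0.0175). Without knockout replicate 2 the call was lost (adjusted p = 0.0690), and the log2 fold change over leave-one-out fits lay between -0.57 and -0.36.

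**Figure D2:**
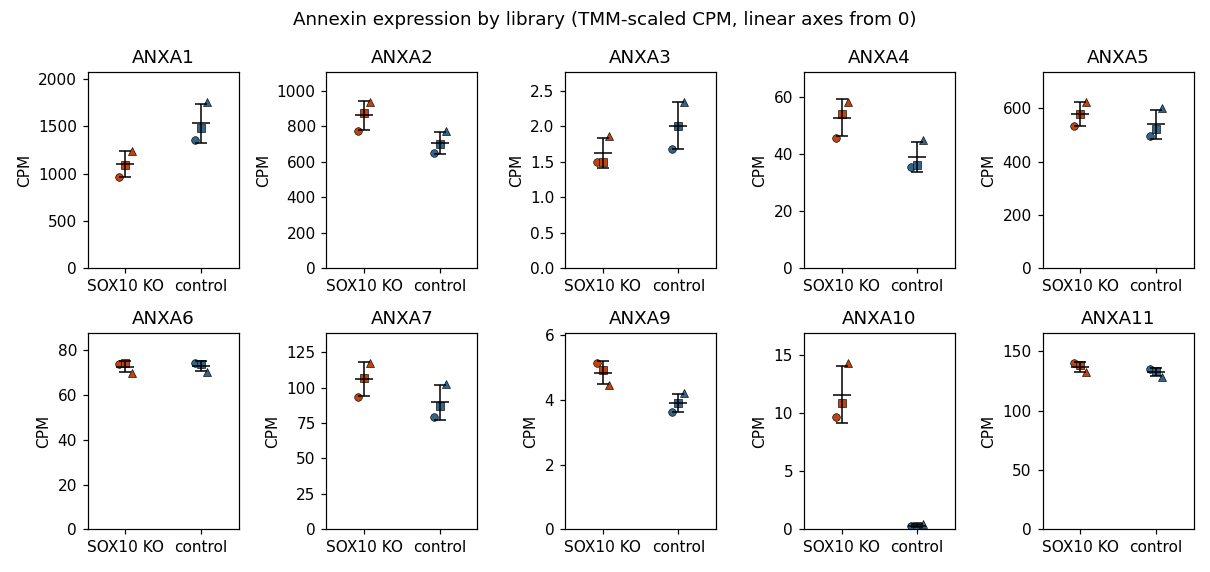
TMM-scaled CPM of each of the 10 annexins by library, with SOX10 knockout on the left and control on the right of each panel. Circles, squares and triangles are replicates 1, 2 and 3, bars are means and whiskers SD (n = 3), and every axis is linear from 0; the groups are apart for ANXA1, ANXA2, ANXA4, ANXA9 and ANXA10.

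ANXA2 (ENSG00000182718; chromosome 15, 60347134 to 60402883, minus strand), which pairs with S100A10 on the inner face of the plasma membrane and binds plasminogen and its activator outside the cell, was called higher. Its libraries stood at 776, 875 and 939 CPM in knockout and 649, 702 and 772 CPM in control cells. The groups touched without overlapping: the lowest knockout library exceeded the highest control library by very little. Means were 864 ± 82.0 CPM in knockout and 708 ± 61.7 CPM in control libraries (SD, n = 3 each), a log2 fold change of 0.29 (standard error 0.09, edgeR adjusted p = 0.0470). The call rested on single libraries: without control replicate 1 or 2 or knockout replicate 2 or 3 the adjusted p was between 0.113 and 0.151.

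Reads of ANXA2 may also fall on its processed pseudogene ANXA2P2, which is near-identical in sequence. ANXA2P2 had 198, 215 and 245 CPM in knockout libraries and 158, 179.5 and 201 CPM in control libraries, overlapping slightly (log2 fold change 0.29, edgeR adjusted p = 0.0774). Its ratio to ANXA2 was 0.254 ± 0.00763 in knockout and 0.253 ± 0.00859 in control libraries (SD, n = 3 each), so the pair kept the same proportion in both groups within the spread between libraries.

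ANXA4 (ENSG00000196975; chromosome 2, 69644425 to 69827100, plus strand), an annexin of epithelia that self-assembles on membranes and is known from membrane repair, had 45.6, 54.2 and 58.3 CPM in knockout libraries. Control libraries had 35.6, 36.2 and 45.1 CPM, all below the knockout libraries but with the nearest values almost equal. Means of 52.7 ± 6.49 CPM in knockout and 39.0 ± 5.32 CPM in control libraries (SD, n = 3 each) gave a log2 fold change of 0.44 (standard error 0.12, edgeR adjusted p = 0.0259). As for ANXA2, leaving out control replicate 1 or 2 or knockout replicate 2 or 3 ended the call, with adjusted p between 0.0672 and 0.111.

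ANXA9 (ENSG00000143412; chromosome 1, 150982017 to 150995634, plus strand), whose core repeats have lost their calcium sites, had 5.14, 4.93 and 4.46 CPM in knockout libraries and 3.64, 3.91 and 4.20 CPM in control libraries. The groups did not overlap, yet the gene fell just short of the threshold (log2 fold change 0.31, standard error 0.10, edgeR adjusted p = 0.0581). Over alternatives without the replicate number as a term its adjusted p ran between 0.0359 and 0.160, and 5 of those 12 called it higher. With that term its edgeR adjusted p was 0.0118.

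The remaining members were not called and their groups overlapped. ANXA5 (ENSG00000164111; chromosome 4, 121667955 to 121697113, minus strand), the phosphatidylserine binder used to stain dying cells, had 534, 578 and 624 CPM in knockout and 496, 521 and 601 CPM in control libraries (log2 fold change 0.10, standard error 0.09, edgeR adjusted p = 0.468). ANXA7 (ENSG00000138279; chromosome 10, 73375101 to 73414076, minus strand), first described as synexin in chromaffin granule fusion, had 93.3, 107 and 117 CPM in knockout and 78.9, 86.9 and 103 CPM in control libraries (log2 fold change 0.24, standard error 0.11, edgeR adjusted p = 0.161). For both genes the upper control library reached into the knockout range, though each knockout library lay above the control library of the same number. With the replicate number as a term both were called higher (edgeR adjusted p = 0.00279 for ANXA5 and 3.02e-07 for ANXA7). An antisense locus shares 105 exonic bases with ANXA7, but it held at most 2 counts in any library.

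Closest to no difference were ANXA6, a member with a duplicated core that organises membrane cholesterol and endosomes, and ANXA11, whose long disordered tail tethers RNA granules to lysosomes. ANXA6 (ENSG00000197043; chromosome 5, 151100712 to 151157882, minus strand) had 73.8, 74.1 and 69.7 CPM in knockout libraries and 74.1, 73.8 and 70.4 CPM in control libraries. The log2 fold change was -0.0051 (standard error 0.06, edgeR adjusted p = 0.963), and its sign depended on the scaling. ANXA11 (ENSG00000122359; chromosome 10, 80150889 to 80205572, minus strand) had 140.1, 139 and 132 CPM in knockout libraries and 135, 134 and 129 CPM in control libraries (log2 fold change 0.05, standard error 0.06, edgeR adjusted p = 0.578). These were also the members whose libraries lay closest together. ANXA3 (ENSG00000138772; chromosome 4, 78551519 to 78610451, plus strand), known from neutrophil granules, had 1.50, 1.49 and 1.86 CPM in knockout libraries against 1.68, 2.00 and 2.34 CPM in control libraries (log2 fold change -0.31, standard error 0.17, edgeR adjusted p = 0.225).

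Levels were compared between genes per length, as CPM per kilobase of all annotated exons. In knockout libraries the order was ANXA1 (242), ANXA5 (191), ANXA2 (97.9), ANXA7 (37.0), ANXA11 (16.1), ANXA6 (13.4), ANXA10 (6.41), ANXA4 (4.77), ANXA9 (2.65) and ANXA3 (0.316). Control libraries kept this order except for ANXA10, which was last: ANXA1 stood at 336 CPM per kilobase, ANXA5 at 178, ANXA2 at 80.2, ANXA7 at 31.3, ANXA11 at 15.5, ANXA6 at 13.4, ANXA4 at 3.53, ANXA9 at 2.15, ANXA3 at 0.392 and ANXA10 at 0.180. No neighbours in either order had overlapping ranges over the 3 libraries of a group, although ANXA10 and ANXA4 in knockout libraries were close, with a lowest value of 5.33 for ANXA10 and a highest of 5.28 for ANXA4. Dividing by the longest transcript instead put ANXA6 before ANXA11 in both groups and ANXA4 before ANXA10 in knockout libraries. Among all tested genes ANXA10 stood at percentile 68.4 of level per length in knockout and 15.0 in control libraries.

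Within each library, ANXA1 made up 39.5% ± 1.08 of the family's summed level per length in knockout and 50.8% ± 1.12 in control libraries (SD, n = 3 each). Its share ran between 38.5% and 40.7% in knockout and between 49.8% and 52.0% in control libraries, without overlap. ANXA5 took 31.3% ± 0.597 in knockout and 26.95% ± 0.386 in control libraries, and ANXA2 took 16.0% ± 0.184 in knockout and 12.2% ± 0.338 in control libraries. The share of ANXA10 was 1.04% ± 0.119 in knockout and 0.0269% ± 0.00532 in control libraries, so it remained a minor member in both. The summed level of the family in CPM did overlap, at 2648 to 3204 in knockout and 2828 to 3487 in control libraries. The ratio of ANXA1 to ANXA2 counts, a comparison chosen after their values were seen, was 1.25, 1.25 and 1.32 in knockout libraries and 2.09, 2.11 and 2.28 in control libraries. It was tighter within each group than either gene's own CPM.

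**Figure D3:**
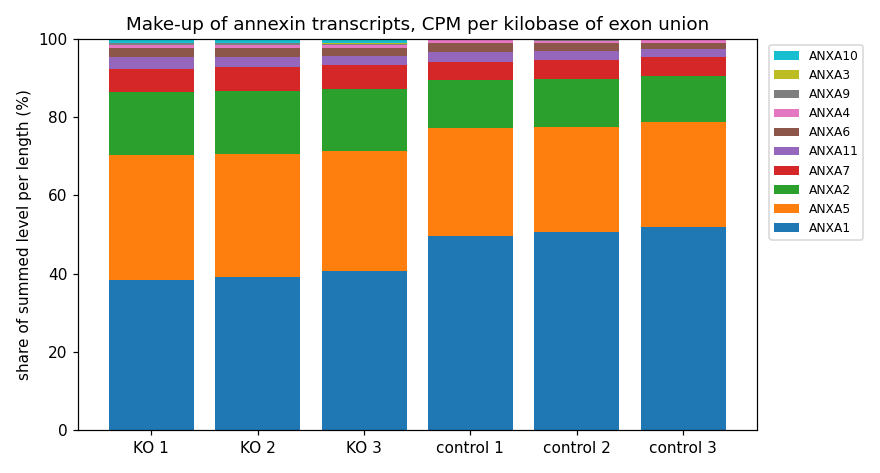
Share of each annexin, in percent, in the family's summed level per length (CPM per kilobase of exon union), with 1 stacked bar per library, the 3 SOX10 knockout libraries left of the 3 control libraries. ANXA1, the bottom segment, takes 38.5% to 40.7% in knockout and 49.8% to 52.0% in control libraries, and ANXA5 and ANXA2 above it take larger shares in knockout.

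Other annexin loci outside the 10 genes were counted as a list of 5, of which 2 rose, 0 fell, 2 did not pass and 1 was not tested, beside 28.0% of all tested genes called and 14.0% called higher. The pair that rose were ANXA8 and ANXA8L1, near-identical copies whose reads may be split between them. ANXA8 had 1.25, 0.894 and 0.944 CPM in knockout and 0.0556, 0.0405 and 0.0416 CPM in control libraries (log2 fold change 4.44, standard error 0.32, edgeR adjusted p = 1.46e-05). ANXA8L1 had 0.917, 1.42 and 1.64 CPM in knockout and 0.125, 0.108 and 0.125 CPM in control libraries (log2 fold change 3.46, standard error 0.31, edgeR adjusted p = 6.09e-05). Their summed counts, which do not depend on the split, were 156, 181 and 203 in knockout libraries and 13, 11 and 12 in control libraries. Summed levels of 2.36 ± 0.214 CPM in knockout and 0.165 ± 0.0162 CPM in control libraries (SD, n = 3 each) differed 14.3-fold. Both genes were near the floor in control libraries, with 3 to 4 counts of ANXA8 and 8 to 9 of ANXA8L1, and passed the filter on low counts through the knockout libraries.

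**Figure D4:**
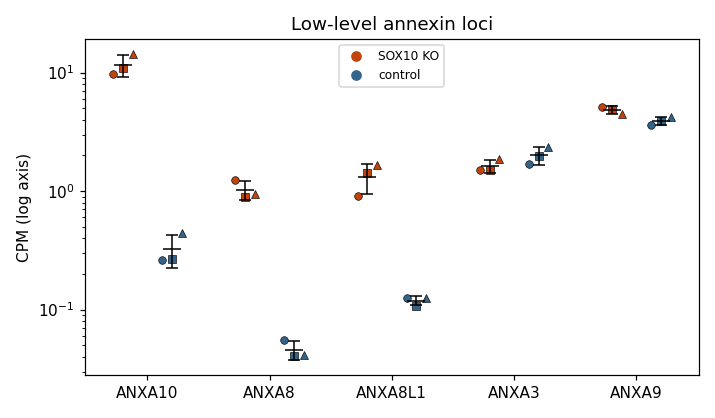
CPM on a log axis for ANXA10, ANXA8, ANXA8L1, ANXA3 and ANXA9, with SOX10 knockout left of control for each gene; circles, squares and triangles are replicates 1, 2 and 3, bars are means and whiskers SD (n = 3). The groups are far apart for ANXA10, ANXA8 and ANXA8L1, close but apart for ANXA9, and overlap for ANXA3.

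Markers of other cell types moved with the groups, where 28.0% of all tested genes were called, 14.0% higher and 14.0% lower. Of 8 fibroblast markers 7 rose (87.5%), and the summed level of all 8 was 21.4 to 24.5 CPM in knockout and 9.34 to 13.6 CPM in control libraries. Most of the sum was LUM, at 14.1 ± 1.88 CPM in knockout and 7.84 ± 1.98 CPM in control libraries. COL1A2, COL3A1, POSTN and THY1 had at most 17 counts in any control library and passed the filter on low counts through the knockout libraries. DCN did not pass, at 0.875 ± 0.266 CPM in knockout and 1.41 ± 0.418 CPM in control libraries. Of 8 keratinocyte and epithelial markers 2 rose, 1 fell, 1 did not pass and 4 were not tested; their sum, mostly KRT10, was 52.5 to 66.9 CPM in knockout and 48.3 to 64.4 CPM in control libraries. KRT5 rose to 0.788 ± 0.0964 CPM in knockout libraries, against 0.110 ± 0.00185 CPM in control libraries, EPCAM rose to 0.260 ± 0.0639 CPM in knockout libraries, against 0.0873 ± 0.0222 CPM in control libraries, and KRT14 fell to 0.249 ± 0.0110 CPM in knockout libraries, against 7.16 ± 0.789 CPM in control libraries. KRT5 and EPCAM had at most 8 counts in any control library and passed the filter on low counts through the knockout libraries. KRT1 was at 0 in all libraries and CDH1 had at most 4 counts in any. Of 6 endothelial markers 2 rose (PECAM1 and CDH5) and 1 fell (KDR). Their sum was 3.46 to 4.50 CPM in knockout and 6.84 to 8.88 CPM in control libraries, and its difference came from KDR, at 0.175 ± 0.128 CPM in knockout and 6.32 ± 1.10 CPM in control libraries. KDR had 2, 20 and 19 counts in knockout libraries, the first under the floor, and passed the filter on low counts through the control libraries. Of 5 leukocyte markers 1 fell, LYZ, which made up most of a sum of 1.47 to 2.24 CPM in knockout and 10.8 to 14.3 CPM in control libraries. The part of these shifts in the annexin differences was not tested.

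S100 proteins that bind annexins formed the first list of partners, with 8 genes, of which 2 rose, 3 fell and 2 did not pass. S100A10, the partner of ANXA2, had 541, 571 and 603 CPM in knockout and 426, 425 and 462 CPM in control libraries, without overlap (log2 fold change 0.39, edgeR adjusted p = 0.00273). The ratio of ANXA2 to S100A10 was 1.51 ± 0.0643 in knockout and 1.62 ± 0.0812 in control libraries (SD, n = 3 each), with overlapping ranges. S100A11, a partner of ANXA1, had 199, 213 and 206 CPM in knockout and 174, 183 and 174 CPM in control libraries (log2 fold change 0.22, edgeR adjusted p = 0.0218). Thus ANXA2 and its S100 partner were both higher, while S100A11 was higher and ANXA1 lower. The S100A11 call did not pass without control replicate 1 or 2 or knockout replicate 2 or 3 (adjusted p between 0.0584 and 0.106).

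S100B, which can bind ANXA6 and is also among the melanocyte markers, fell to 1.42, 1.15 and 1.28 CPM in knockout libraries, against 28.9, 32.2 and 37.5 CPM in control libraries (log2 fold change -4.68, edgeR adjusted p = 1.17e-07). S100A1, its close relative, fell to 0.762 ± 0.0271 CPM in knockout libraries, against 3.14 ± 0.207 CPM in control libraries (log2 fold change -2.04, edgeR adjusted p = 7.16e-06). S100P was lower at 0.423 ± 0.0483 CPM in knockout and 0.893 ± 0.346 CPM in control libraries (log2 fold change -1.07, edgeR adjusted p = 0.0340); except without control replicate 1, each leave-one-out fit lost this call (adjusted p between 0.0656 and 0.103), as did limma-voom (0.0597). S100A4 and S100A6 did not pass: S100A4 averaged 195 ± 33.8 CPM in knockout and 148 ± 28.9 CPM in control libraries (edgeR adjusted p = 0.104), and S100A6 averaged 864 ± 142 CPM in knockout and 756 ± 165 CPM in control libraries (edgeR adjusted p = 0.455). S100A12 had 0 counts in all libraries, which allows at most 0.0417 CPM. The list's share called was 71.4%, beside 28.0% of all tested genes.

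Formyl peptide receptors, through which ANXA1 acts, were barely detected. FPR1 had 0, 5 and 5 counts in knockout and 1, 0 and 3 counts in control libraries. For FPR2 there was 1 count, in knockout replicate 2, and for FPR3 there were 4 counts, in the same library. None of the 3 genes was tested.

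Genes of plasmin generation, the surface reaction to which ANXA2 and S100A10 contribute, moved in both directions: 4 rose, 2 fell and 2 did not pass of 8 tested (75.0% called, beside 28.0% of all tested genes), with PLG, the plasminogen gene, at no more than 1 count in any library. PLAU, the urokinase activator, rose to 1.53, 0.945 and 1.98 CPM in knockout libraries, against 0.0973, 0.162 and 0.277 CPM in control libraries (log2 fold change 3.04, edgeR adjusted p = 0.000580). PLAUR, its receptor, rose to 42.5 ± 0.172 CPM in knockout libraries, against 33.7 ± 1.46 CPM in control libraries (log2 fold change 0.33, edgeR adjusted p = 0.00344). PLAU had 7, 12 and 20 counts in control libraries and passed the filter on low counts through the knockout libraries. The activator and the receptor of the urokinase arm were both higher, the activator from few control reads.

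In the other arm, PLAT, the tissue activator that ANXA2 and S100A10 can bind, fell to 25.7, 26.4 and 27.8 CPM in knockout libraries, against 70.8, 75.0 and 75.7 CPM in control libraries (log2 fold change -1.47, edgeR adjusted p = 7.64e-07). SERPINE2, a secreted protease inhibitor that was not assigned to either arm, also fell. It had 3259 ± 74.0 CPM in knockout libraries, against 4159 ± 102 CPM in control libraries (log2 fold change -0.35, edgeR adjusted p = 0.00167). ANXA2R, named here after its values were seen, rose to 1.43 ± 0.191 CPM in knockout libraries, against 0.814 ± 0.125 CPM in control libraries (log2 fold change 0.81, edgeR adjusted p = 0.0113), and it shares its locus with other transcripts.

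**Figure D5:**
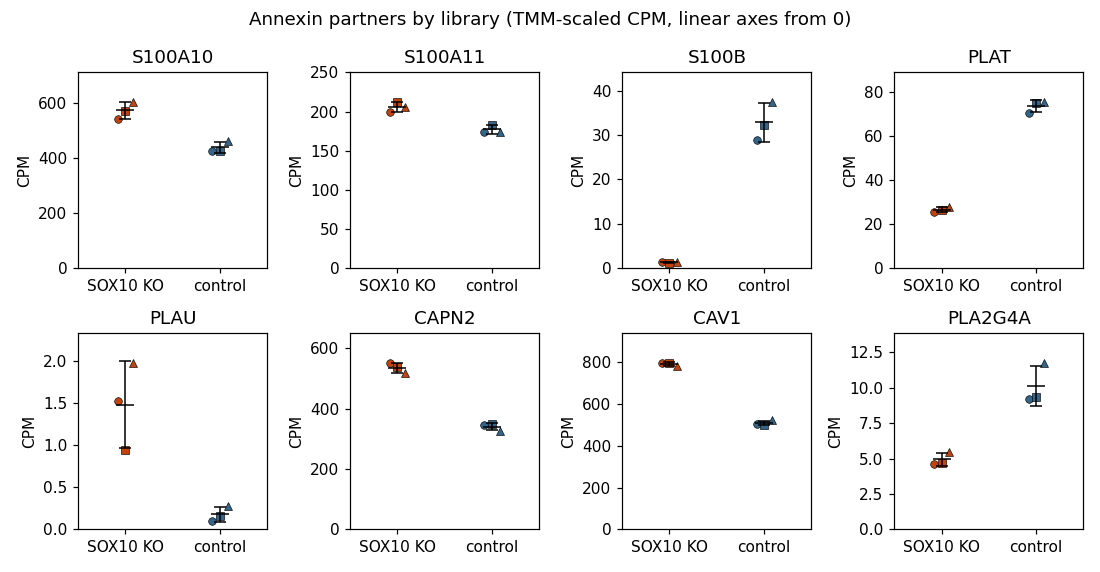
TMM-scaled CPM by library of 8 genes of the annexin partner lists, with SOX10 knockout on the left and control on the right of each panel. Circles, squares and triangles are replicates 1, 2 and 3, bars are means and whiskers SD (n = 3), and axes are linear from 0. S100A10, S100A11, PLAU, CAPN2 and CAV1 are higher in knockout, and S100B, PLAT and PLA2G4A are lower, each without overlap.

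Penta-EF-hand proteins, some of which bind the tails of ANXA7 and ANXA11, were listed together with calpains of the same protein family. The list stood near the background: 2 of 7 rose and 0 fell, a share of 28.6% beside 28.0% of all tested genes. Both that rose were calpain subunits, which were not listed as binders of these tails. CAPN2 rose to 550.5, 538 and 517 CPM in knockout libraries, against 347, 348 and 325 CPM in control libraries (log2 fold change 0.65, edgeR adjusted p = 6.30e-05). CAPN1 was called higher, at 61.4 ± 1.11 CPM in knockout and 53.6 ± 2.04 CPM in control libraries (log2 fold change 0.19, edgeR adjusted p = 0.0379), but leaving out any one library lost the call, with adjusted p between 0.0670 and 0.130. PDCD6, the partner of ANXA11, and SRI, the partner of ANXA7, did not pass: PDCD6 averaged 146 ± 15.9 CPM in knockout and 143 ± 18.6 CPM in control libraries (edgeR adjusted p = 0.874), and SRI 87.9 ± 7.55 CPM in knockout and 89.1 ± 9.50 CPM in control libraries (edgeR adjusted p = 0.907).

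Plasma membrane repair genes had 6 that rose and 0 that fell of 14 tested, a share of 42.9% beside 28.0% of all tested genes, with a median log2 fold change of 0.19 beside -0.02 over all of them. CAV1, the main coat protein of caveolae, rose to 795, 796 and 781 CPM in knockout libraries, against 505, 502 and 522 CPM in control libraries (log2 fold change 0.63, edgeR adjusted p = 4.18e-05). EHD2, a membrane-remodelling ATPase at the neck of caveolae, rose to 69.7 ± 6.87 CPM in knockout libraries, against 44.2 ± 3.54 CPM in control libraries (log2 fold change 0.66, edgeR adjusted p = 0.000833). CHMP2A, an ESCRT-III subunit, rose to 69.0 ± 3.49 CPM in knockout libraries, against 53.3 ± 4.85 CPM in control libraries (log2 fold change 0.37, edgeR adjusted p = 0.00936). MYOF, a ferlin, and CAVIN1, a caveolar partner of CAV1, did not pass: MYOF averaged 418 ± 48.9 CPM in knockout and 461 ± 61.1 CPM in control libraries, and CAVIN1 averaged 321 ± 23.4 CPM in knockout and 312 ± 17.8 CPM in control libraries.

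Genes of phospholipid flippases and scramblases were listed together, as some such enzymes move phosphatidylserine, the lipid that ANXA5 binds. The list stood near the background: 2 rose, 2 fell and 8 did not pass of 12 tested (33.3% called, beside 28.0% of all tested genes). Which lipid each enzyme moves was not examined. ATP10A, a flippase, rose to 8.98 ± 0.626 CPM in knockout libraries, against 4.91 ± 0.673 CPM in control libraries (log2 fold change 0.87, edgeR adjusted p = 0.000634), and ATP8B1 rose to 0.637 ± 0.0997 CPM in knockout libraries, against 0.169 ± 0.0183 CPM in control libraries (log2 fold change 1.90, edgeR adjusted p = 0.000799). ATP11A, a plasma membrane flippase, was called lower. It had 51.6, 45.9 and 40.3 CPM in knockout and 78.4, 69.7 and 54.7 CPM in control libraries (log2 fold change -0.56, edgeR adjusted p = 0.0169). ATP11A lost its call without control replicate 1 or 2 or knockout replicate 2 or 3 (adjusted p between 0.0507 and 0.0690). The scramblase ANO6 did not pass, at 119 ± 5.70 CPM in knockout and 129 ± 8.83 CPM in control libraries (edgeR adjusted p = 0.275).

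In phospholipase A2 and eicosanoid synthesis, the pathway that ANXA1 restrains, 4 of 10 tested genes rose and 1 fell, 5 of 10 called, beside 28.0% of all tested genes. Among the 4 that rose, PLA2G4C had at most 6 counts in any control library and passed the filter on low counts through the knockout libraries. The gene that fell was PLA2G4A, the cytosolic phospholipase itself, with 4.63, 4.70 and 5.48 CPM in knockout libraries and 9.20, 9.36 and 11.7 CPM in control libraries (log2 fold change -1.03, edgeR adjusted p = 0.000313). PTGES, the inducible prostaglandin E synthase, rose to 82.7, 87.8 and 86.4 CPM in knockout libraries, against 34.9, 35.9 and 37.6 CPM in control libraries (log2 fold change 1.24, edgeR adjusted p = 1.53e-06). ANXA1 and the enzyme it inhibits were thus both lower, while a downstream synthase was higher. PTGS2, the inducible cyclooxygenase, rose to 2.67 ± 0.0696 CPM in knockout libraries, against 1.80 ± 0.0667 CPM in control libraries (log2 fold change 0.57, edgeR adjusted p = 0.00516), and PLA2G15, a lysosomal phospholipase, rose to 10.8 ± 0.672 CPM in knockout libraries, against 8.24 ± 0.105 CPM in control libraries (log2 fold change 0.39, edgeR adjusted p = 0.00584).

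Genes most like the 2 members that moved furthest were sought among the 10388 tested genes averaging 5 CPM or more with an official symbol. The measure was Pearson correlation of log2 CPM over the 6 libraries, with a small constant added to CPM before taking logs. That constant exceeded the control levels of ANXA10 and so compressed its difference between groups. The 6 points share the libraries and the difference between groups, so the values describe likeness and carry no test. For ANXA10 the nearest were LRRC17 (0.9996), TNFRSF11B (0.9995) and ASPH (0.9994). LRRC17 averaged 13.2 ± 1.97 CPM in knockout and 1.82 ± 0.157 CPM in control libraries, TNFRSF11B, the decoy receptor osteoprotegerin, 37.5 ± 3.68 CPM in knockout and 6.10 ± 0.566 CPM in control libraries, and ASPH 444 ± 14.7 CPM in knockout and 299.7 ± 7.92 CPM in control libraries. For ANXA1 the nearest were STMN1 (0.9991), ECD (0.9989) and TFB1M (0.9987). STMN1, a microtubule destabiliser, averaged 401 ± 44.1 CPM in knockout and 537 ± 71.9 CPM in control libraries.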

How the data were processed

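The table that the authors deposited holds raw counts of reads for each gene, 1 column per library, without normalization. HISAT2, HTSeq and the build hg38 are named per the submitters' processing notes; RNA was purified on columns and libraries were made with a stranded, polyA-selecting kit per the labels' protocols. The sources used here do not give tool versions, the strand setting or the annotation release, so reads of overlapping or near-identical genes may not be fully separated. Of 58721 gene IDs, 58676 matched GENCODE 29 directly and 45 were copies on the Y pseudoautosomal region; 0 columns were left unused, and replicates differed by more than sampling noise.

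The test was run in edgeR 4.0.16 under R 4.3.3 (filterByExpr, TMM scaling, two-sided quasi-likelihood test, no covariates, Benjamini-Hochberg adjustment over 19263 genes, threshold 0.05); standard errors derive from the same fit. Alternatives were DESeq2 1.42.0, limma-voom (limma 3.58.1), other scalings and filters (none, or 1 CPM or more in 3 libraries), a block for replicate number, and each library left out. The procedure was tested on simulated counts. Floors of 3 counts cover counting error only. Tables and plots used Python 3.11.15, pandas 2.3.3 and matplotlib 3.10.9. Genes named were the 10 annexins, SOX10, all S100 and formyl peptide receptor genes, up to 3 called genes of each other list in each direction by smallest p, and the 3 genes most like ANXA10 and ANXA1; others, including PDCD6, SRI, MYOF, CAVIN1 and ANO6, the marker genes and the ANXA2P2 values, were named after their values were seen. Some genes that the rule takes are not reported here. The members and lists were chosen with earlier results of these data known.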

Additional observations from a re-analysis of the deposited data

How the results depend on the processing

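Of 37 single genes, 8 lost their call in at least 1 alternative, and 418 of 476 alternative values kept direction and side of the threshold. With 3 annexins called higher and 1 lower in the analysis reported, leaving out 1 library gave 1 to 5 higher and 0 to 1 lower, the 0 without knockout replicate 2. The partner lists had 22 genes higher and 8 lower, and 16 to 22 higher and 5 to 7 lower with 1 library left out. In the analysis reported, 14.0% of all tested genes were called higher and 14.0% lower, and the share of each list is given above. Over all genes, 1794 were lower without knockout replicate 2, beside 2702. ANXA6, near 0, changed sign: its log2 fold change was 0.0046 with DESeq2 and with DESeq2 size factors, 0.036 scaled by total counts, 0.013 with at least 1 CPM in 3 libraries, and -0.030 to 0.023 with 1 library left out (0.017 without control replicate 1, 0.0041 without control replicate 2, 0.023 without knockout replicate 3). Dividing by the longest transcript kept 6 of 10 ranks in knockout libraries, by construction of the lengths. Causes of the other changes were not tested.

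Replicate numbers are shared between the groups, and the labels do not say that they mark a shared culture. Deviations of same-numbered libraries correlated at 0.55, 0.019 and 0.59. Control replicate 1 and knockout replicate 3 correlated at -0.55, and control replicate 3 and knockout replicate 1 at -0.58. Libraries numbered 1 and 3 thus shared structure by number, though not every library correlated best with its own number. The main test did not use the numbers as pairs, and whether they pair the libraries is not known. With the replicate block, 6 annexins were higher and 1 lower, and 33 partner genes were higher and 14 lower. Over all 19263 tested genes, 4637 were then higher and 5176 lower, so calls became more frequent throughout. The 6 annexins are read beside that rise. The 6 included ANXA5, ANXA7 and ANXA9, which were not called in the analysis reported. For ANXA7 the standard error was 0.114 without the block and 0.0304 with it. Among the annexins, 6 of 10 (60.0%) were lowest in library 1 and highest in library 3 in both groups, as were 18.1% of all tested genes.

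Depth limits the annexin loci near the floor: ANXA8 in control libraries rested on 3 to 4 counts, so its fold is poorly determined. Only 3 libraries a group were analysed.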

Other observations

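The nearest tested protein-coding genes on either side of each annexin, a comparison chosen after the annexin values were seen, numbered 20, of which 6 were higher and 2 lower in knockout libraries by edgeR's quasi-likelihood test. That is 40.0% called, beside 28.0% of all tested genes. Both neighbours of ANXA10 were higher. DDX60, an interferon-inducible helicase 28.6 kb away, averaged 9.94 ± 0.578 CPM in knockout and 7.29 ± 0.158 CPM in control libraries (SD, n = 3 each; log2 fold change 0.45, edgeR adjusted p = 0.00294). SPOCK3, a proteoglycan gene 858 kb away, averaged 1.23 ± 0.221 CPM in knockout and 0.505 ± 0.128 CPM in control libraries (log2 fold change 1.28, edgeR adjusted p = 0.00434). Neither moved as far as ANXA10 on the log2 scale. Around ANXA1 the neighbours moved in opposite directions: ZFAND5, 787 kb away, averaged 165 ± 8.32 CPM in knockout and 202 ± 7.99 CPM in control libraries (log2 fold change -0.29, edgeR adjusted p = 0.00950), and RORB, a nuclear receptor gene 1327 kb away, averaged 67.7 ± 6.56 CPM in knockout and 25.5 ± 2.23 CPM in control libraries (log2 fold change 1.41, edgeR adjusted p = 9.88e-06). The nearest genes of ANXA2, ANXA4, ANXA7 and ANXA9 were not called on either side.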
